A study of Mus musculus with 28 samples.

Results

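The 15 libraries of young mouse epidermis with values for each library carry numbers that fall into runs, and 6 of them are numbered U0110 to U0115. They are compared here with all others of the same sex among these 15, out of 28 samples in the study. Females that were Cre+ with Utx +/fl are not among the 15. The members were chosen by library number, with earlier results of these data known. What a run of numbers stands for (a mouse cohort, a day of extraction or a sequencing run) is not stated in the labels, so it is called a number series and not a batch. The study deleted the X-linked gene Kdm6a, also called Utx, in the epithelium of mice with Krt14-Cre, a recombinase driven by a keratin promoter of basal cells, so deletion is limited to cells that have used that promoter. Controls were Cre- and carried floxed alleles, Utx fl/fl in females and Utx fl/Y in males, except U0223, which was Cre- with Utx +/Y. Knockout (cKO) libraries were Cre+ with Utx fl/fl or Utx fl/Y. In females the series holds controls U0110 and U0111 and cKO U0114 and U0115, against controls U0254 and U0465 and cKO U0252, U0253 and U0468. In males it holds cKO U0112 and control U0113, against controls U0223 and U0458 and cKO U0224 and U0462. Only the word young in the titles of the deposited tables gives an age, and nothing states that libraries came from separate animals, so p-values measure the spread between these libraries.

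Several groups of genes recur below. Ribosomal proteins, subunits of the respiratory chain and subunits of the proteasome are made by short, abundant messages in every cell. Hox genes encode transcription factors that hold the positional identity of skin along the body, so their messages differ between body sites. Laminins are secreted chains of the basement membrane to which basal keratinocytes attach.

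Values are the authors' normalized signal, with no unit, so a level is compared between libraries of one table and not between genes. A change is the log2 ratio of the series over the other libraries on the log2(value + 1) scale, with knockout status in the fit, its standard error (SE) and a limma adjusted p with a threshold of 0.05. Kdm6a was at 1265, 1484, 1368 and 1663 in the female controls U0110, U0111, U0254 and U0465, and at 873 to 1154 in the 5 female cKO libraries. It was at 816 to 1187 in the 3 male controls and at 460 to 573 in the 3 male cKO libraries. The genotypes did not overlap in either table, and Kdm6a did not pass for the series (-0.19, SE 0.08, adjusted p = 0.11 in females). The basal keratin gene Krt5 (201684 to 276038) and the suprabasal keratin gene Krt10 (233793 to 426054) were high in all 15 libraries. Depth was estimated at 15.8 to 22.8 M reads in the series and 20.3 to 29.0 M in the other female libraries, and at 19.6 and 19.9 M against 21.1 to 25.5 M in males. The series libraries held more genes at the value of a single read, with a median of 260.5 against 88 in females and 417 against 119.5 in males, and the ranges did not overlap.

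Some of the largest differences lay in genes with near-identical copies, whose sequences are shown because reads from one copy fit another. Srp54a, Srp54b and Srp54c on chromosome 12 encode a subunit of the signal recognition particle. Over 1515 coding bases Srp54a and Srp54b had 0 mismatches and Srp54a and Srp54c had 6. Coding bases 922 to 981 follow, 5′ to 3′ from GENCODE transcripts on GRCm38, with the bases that set Srp54c apart in capitals.
Srp54a: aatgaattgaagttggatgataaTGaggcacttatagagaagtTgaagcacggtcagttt
Srp54b: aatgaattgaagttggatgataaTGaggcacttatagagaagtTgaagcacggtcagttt
Srp54c: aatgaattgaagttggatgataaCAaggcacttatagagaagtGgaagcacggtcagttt
Gm10052, a processed pseudogene on the minus strand of chromosome 9 (123689233 to 123690192), equals Hnrnpa1, an RNA-binding protein gene on chromosome 15, over all its 960 bases. The first 60 bases of the pseudogene and the matching bases of the gene are these.
Gm10052: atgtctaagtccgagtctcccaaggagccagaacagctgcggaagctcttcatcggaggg
Hnrnpa1: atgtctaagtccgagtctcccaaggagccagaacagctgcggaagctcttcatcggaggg

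Srp54b was at 28.5, 77.1, 135 and 14.0 in the female series and at 774, 881, 600, 605 and 756 in the other female libraries. It was at 73.4 and 74.7 in the male series and at 743, 802, 596 and 587 in the others. Its fall of -3.93 (SE 0.52, limma adjusted p = 0.00033) in females and -3.17 (SE 0.18, adjusted p = 0.00096) in males had no overlap of values in either table. Srp54a, whose coding bases equal those of Srp54b, rose by 0.33 in females (SE 0.07, adjusted p = 0.0061). The untranslated parts of these genes were not compared. Srp54c fell by 0.24 in females (adjusted p = 0.016, and 0.071 without U0115) and did not pass in males (-0.67, adjusted p = 0.054). Gm10052 was listed at 0 in U0110, U0111, U0115, U0112 and U0113 and at 519 in U0114, against 1121 to 2498 in the other 9 libraries. Hnrnpa1 was at 1889 to 2788 in all 15 and did not pass (limma adjusted p = 0.093 and 0.24). H2-L, a class I histocompatibility gene, was listed at 0 in both male series libraries and at 1381 to 1663 in the other males, but also at 0 in all 9 female libraries. Snurf, which overlaps Snrpn, was listed at 0 in U0112 and U0113 and at 40.0 to 127.1 in the other males, and in females it was at 0 in 2 of 4 series libraries and 4 of 5 others. How the authors assigned reads that fit several genes is not given in the sources used here, so all these values are uncertain as measures of the named gene.

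**Figure D1:**
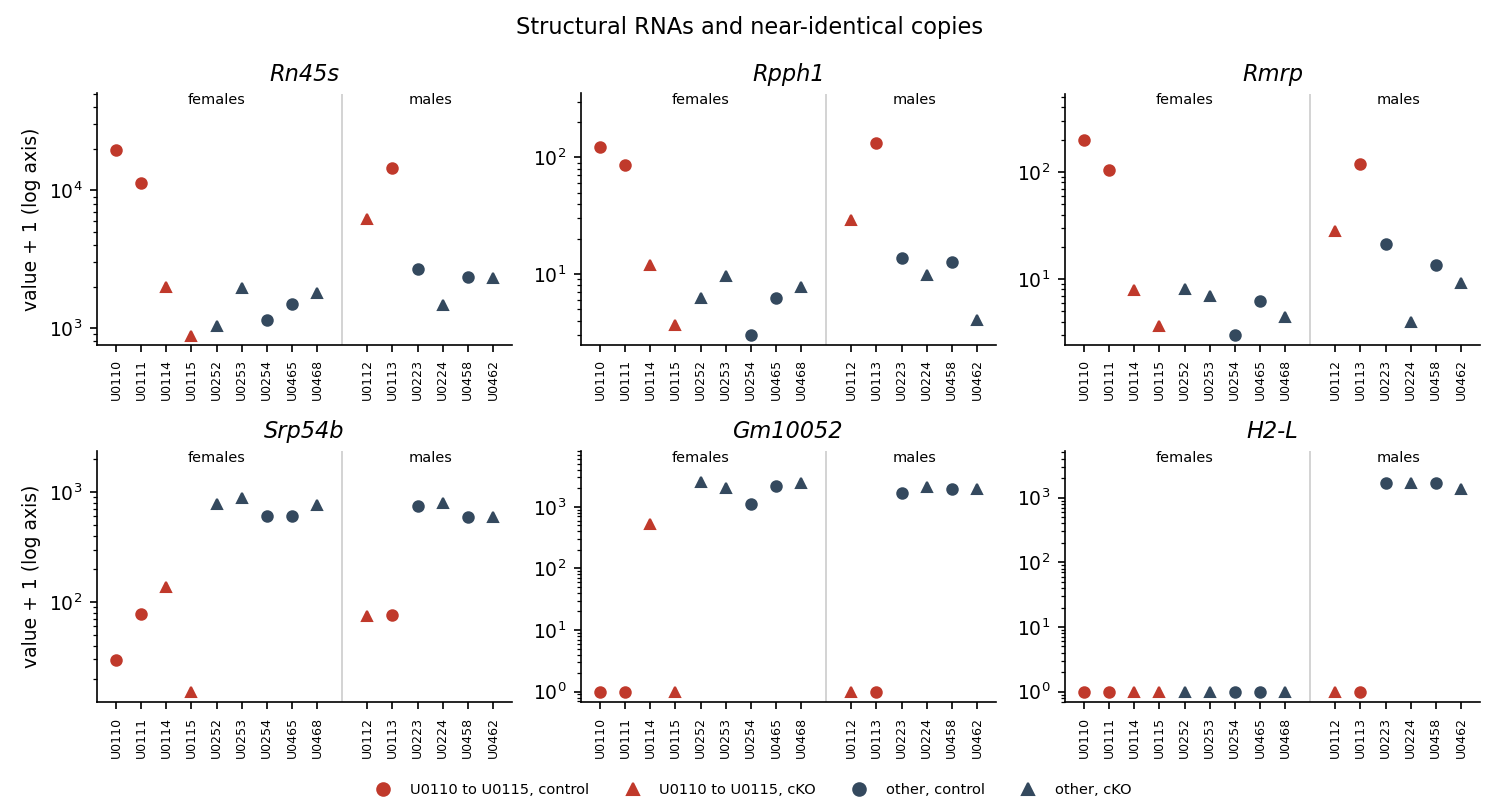
Normalized value plus 1 (log axis) of 3 structural RNAs and 3 genes with uncertain read assignment (Srp54b, Gm10052 and H2-L) in each of the 15 libraries, red for U0110 to U0115, dark for the others, circles for controls and triangles for cKO. Srp54b is at 14.0 to 135 in all 6 series libraries and at 587 to 881 in the other 9, while Rn45s is high in U0110, U0111, U0112 and U0113 and not in U0114 and U0115.

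Across all genes, more passed for the series than for the genotype. In females 4758 of 13898 tested genes (34.2%) passed for the series, 2520 higher (18.1%) and 2238 lower (16.1%). In the same fit 1523 (11%) passed for the knockout, 610 higher (4.39%) and 913 lower (6.57%), and 4176 genes (30%) passed for the series and not for the knockout. The values of 24.7% of all tested genes did not overlap between the series and the other libraries. The series term held 29.2% of the summed squares of log2 values, the knockout 24.8% and the residual 44.7%. The first principal component (35.3% of variance) placed U0110 and U0111 at 47.5 and 44.3 and U0114 and U0115 at 8.90 and 15.6, above all others (-46.0 to -0.527).

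In males 338 of 14088 tested genes (2.4%) passed for the series, 191 higher (1.36%) and 147 lower (1.04%), and 2 (0.0142%) for the knockout. The values of 38.4% of all tested genes did not overlap between 2 series and 4 other libraries. The first component (35.8%) placed U0112 and U0113 at 35.0 and 51.4 and the others at -34.7 to -7.34. The series term held 34.3% of the summed squares, the knockout 17.2% and the residual 48.4%. With 2 series libraries the male count was fragile: it was 330 without U0462, 41 without U0223, 12 without U0458, 8 without U0224, 3 without U0113 and 2 without U0112. Of the 32 genes described here that passed in males, 30 no longer passed without U0112, and 30 without U0113.

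The male and female tables share no library, and most changes had the same sign in both. Of 2517 genes that rose in females and were tested in males, 2384 (94.7%) were above 0 in males, where 48.7% of all genes were. Of 2229 that fell, 2064 (92.6%) were below 0. In the other direction 187 of 189 male rises and 141 of 144 male falls had the same sign in females, and 173 and 121 passed in both. Pearson's r of the change was 0.557 and Spearman's rho 0.648 across 13695 genes, as a description, since genes share libraries. The female and male changes themselves differed for 103 genes (0.752%, z test of the difference with Benjamini-Hochberg adjustment). The z test takes the standard errors as known, so with few libraries its p-values may be too small. Sex cannot be told apart from table, since each sex has its own libraries and scaling. Differences between the sexes below are therefore differences between the tables.

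**Figure D2:**
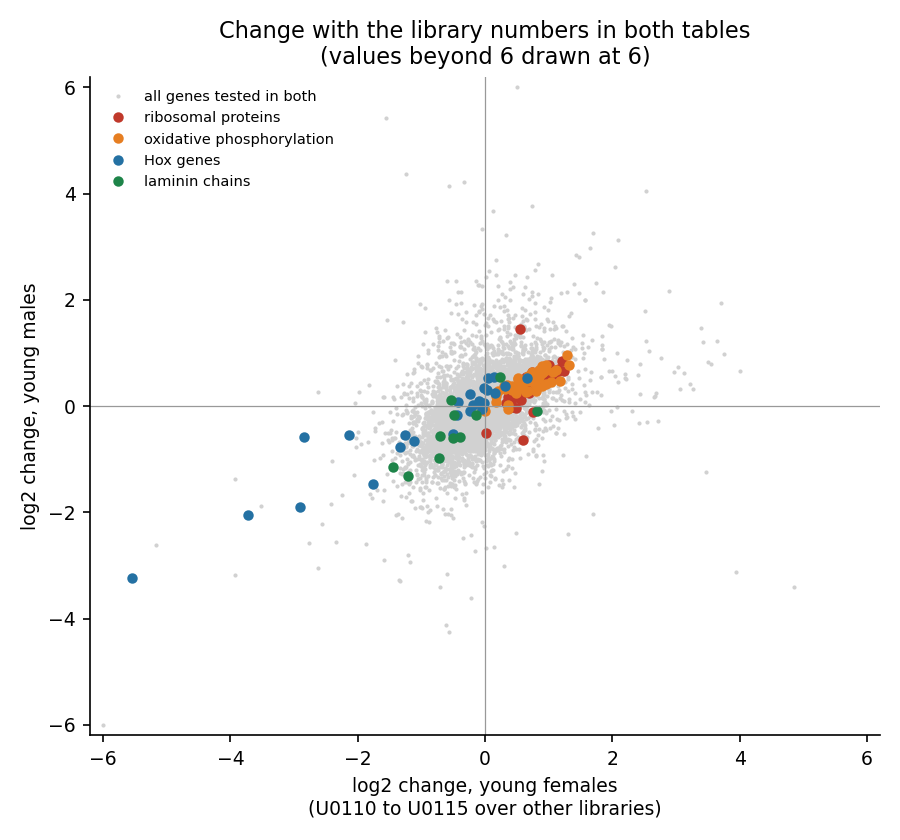
Log2 change of the series over the other libraries in young females (horizontal) and young males (vertical), one point per gene tested in both tables, with values beyond 6 drawn at 6. Ribosomal protein and respiratory chain genes lie mostly in the upper right, laminin chains mostly and the outlying Hox genes in the lower left.

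The change followed transcript length. Genes were cut into 10 equal groups by length. In the group with the shortest transcripts (80 to 1373 bases) the median change was 0.49 in females, and 54.9% rose while 1.45% fell. In the longest group the median was -0.20, and 34.3% fell while 4.79% rose. In males the medians of these groups were 0.39 and -0.17. Spearman's rho of the series change with length was -0.45 across 13775 genes in females and -0.35 across 13951 in males, against 0.13 and 0.10 for the knockout change. With GC content it was 0.069 in females and 0.20 in males. When each library's trend on length was removed, 3318 genes passed in females and 33 in males, a setting added after the data were seen. RNA integrity and fragment size are not in the files, and their part in this gradient was not tested.

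**Figure D3:**
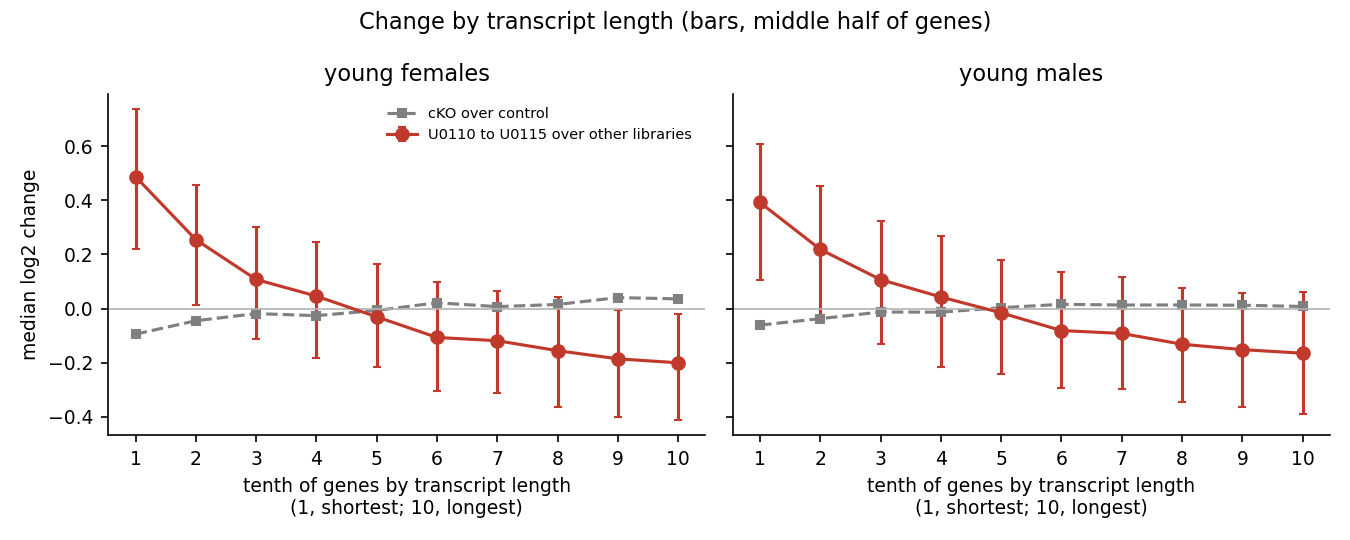
Median log2 change (vertical) in 10 equal groups of tested genes by length of the longest annotated transcript (horizontal), red for the series with bars from the lower to the upper quartile of genes, grey for the knockout. The red medians descend from 0.49 to -0.20 in females and from 0.39 to -0.17 in males, while the grey medians stay between -0.095 and 0.041.

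Cytosolic ribosomal proteins moved together in females. There, 75 of 77 tested members rose and 0 fell, with a median change of 0.71 beside -0.03 over all genes, and 1 rose and 2 fell with the knockout. In males 13 of 77 rose, 0 fell and the median was 0.45. Rpl41, a small protein of the large subunit, was at 30666, 27133, 22136 and 28052 in U0110, U0111, U0114 and U0115. In the other females it was at 9491 to 12836, and in males at 21573 and 26585 against 14243 to 16349. The groups did not overlap in either table. The change was 1.17 in females (SE 0.10, limma adjusted p = 7e-05) and 0.66 in males (SE 0.12, adjusted p = 0.049). Rpl37a of the large subunit (1.23 and 0.66), Rps21 of the small subunit (1.15 and 0.71) and Fau, which encodes a ubiquitin-like protein fused to a small subunit protein (0.997 and 0.717), rose in both tables, and Rps21 fell with the knockout in females (-0.37, limma adjusted p = 0.037). Rps29 rose in females (1.09, adjusted p = 7.6e-05) and was at 0.61 in males (adjusted p = 0.054). Many ribosomal protein genes have processed pseudogenes, so their split of reads is uncertain.

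With the length trend removed the ribosomal median fell to 0.26 in females, where 41 of 77 still rose and 4 fell, and to 0.11 in males, where 0 passed. With quantile normalization the medians were 0.44 and 0.25. Against the 200s alone the median was 0.70 in females and 0.43 in males, and against the 400s alone 0.76 and 0.46. Genes for building ribosomes, which are longer (median 3065 bases against 1094), did not share the pattern. In females 4 of 30 rose, 4 fell and the median was -0.03. In males 0 of 30 rose, 2 fell and the median was -0.32, and -0.24 with the length trend removed.

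Nuclear genes of oxidative phosphorylation behaved likewise. In females 54 of 60 tested members rose, 0 fell and the median was 0.68, and in males 9 rose, 0 fell and the median was 0.47. Cox7c, a subunit of cytochrome c oxidase, was at 3817, 3692, 2936 and 3426 in the female series, 1297 to 1851 in the other females, 2878 and 3553 in the male series and 1843 to 2261 in the other males. It rose by 1.11 (SE 0.08, limma adjusted p = 3.4e-05) and by 0.68 (SE 0.12, adjusted p = 0.049), with no overlap. Atp5e of the ATP synthase rose by 1.32 and 0.78, and Ndufa2 of complex I by 1.29 and 0.97. After the length trend was removed 32 members rose and 2 fell in females (median 0.22), and 1 rose in males (median 0.17). Transcripts of the mitochondrial genome were not analysed here.

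Mitochondrial ribosomal proteins and the proteasome followed. Of 78 mitochondrial ribosomal members 60 rose and 0 fell in females (median 0.53), and 4 rose in males (median 0.35). Mrps21, of the small mitochondrial subunit, was at 1322 to 1592 in the female series against 647 to 817. Of 37 proteasome subunits 32 rose and 0 fell in females (median 0.46), and 7 rose in males (median 0.31). Psmb4, a subunit of the core, was at 5692, 5257, 4470 and 5289 in the female series against 2352 to 3040 and rose by 0.91 (SE 0.08, limma adjusted p = 7.4e-05). Its male change was 0.54 (adjusted p = 0.054). With the length trend removed 34 mitochondrial ribosomal members rose in females (median 0.21) and 0 in males (0.14), and 22 proteasome members rose and 2 fell in females (0.20) and 1 rose in males (0.099). No member of either list passed for the knockout in either table.

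**Figure D4:**
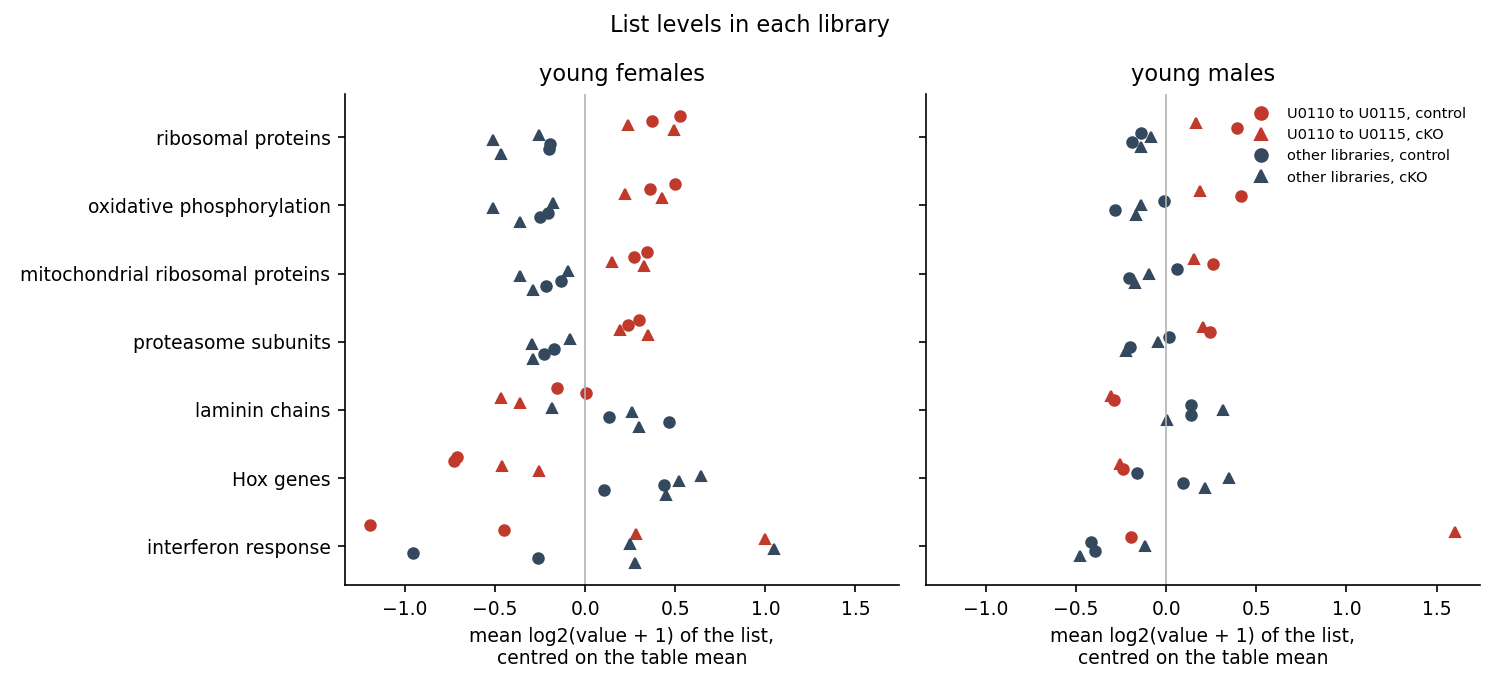
Mean log2(value + 1) of the tested members of 7 lists, centred on the mean of the table (horizontal), in each library of young females and young males, red for U0110 to U0115, dark for the others, circles for controls and triangles for cKO. The 4 upper lists sit to the right in every red library, and the interferon list separates triangles from circles in females and only U0112 from the rest in males.

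Wide falls were seen in Hox genes. Of 39 family members 25 were tested in each table. In females 12 fell and 1 rose with the series, and 3 rose and 1 fell with the knockout. In males 4 fell and 0 rose. Falls with the series made up 16.1% of all tested genes in females and 1.04% in males. The family was picked after its values had been seen. Its median was -0.23 in females, -0.35 against the 200s, and -0.06 in males, where quantile normalization turned it to 0.02, so the falls were of particular members.

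Hoxa9, expressed in posterior positions of the body axis, was at 2.03, 0, 5.55 and 8.05 in U0110, U0111, U0114 and U0115 and at 312, 279, 184, 77.3 and 198 in the other females. In males it was at 14.8 and 11.9 in U0112 and U0113 and at 80.6, 267, 113.4 and 132 in the others. It fell by 5.54 (SE 0.40, limma adjusted p = 3.4e-05) in females, where it also rose with the knockout (1.58, adjusted p = 0.031), and by 3.24 (SE 0.36, adjusted p = 0.030) in males. Hoxb9, of the same group in the B cluster on chromosome 11, was at 84.0, 21.1, 47.5 and 96.7 against 1081, 1067, 677, 403 and 824 in females and at 198 and 89.7 against 347, 881, 457.7 and 690 in males. Its changes were -3.73 (SE 0.35, adjusted p = 7.8e-05) and -2.06 (SE 0.18, adjusted p = 0.0090), and the knockout did not pass (adjusted p = 0.18 and 0.40). Both genes were low in every series library, control or cKO, with no overlap in either table.

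In the D cluster on chromosome 2, Hoxd8 was at 54.9 to 79.3 in the female series against 262 to 371 and fell by 2.14 (SE 0.16, limma adjusted p = 3.4e-05). Hoxd4 fell by 2.85 in females (adjusted p = 0.00017) and Hoxd3 by 2.90 (adjusted p = 0.00017). The annotated spans of Hoxd3 and Hoxd4 overlap on one strand, so reads in the shared part may belong to either. In males the values of Hoxd8 (91.3 and 187 against 151 to 291) and Hoxd4 (47.7 and 66.0 against 35.0 to 176) overlapped, and neither passed. Hoxa6 was low in both tables, with changes of -1.75 (adjusted p = 0.0031) and -1.46 (adjusted p = 0.047). Hoxa7 fell in females (-1.12, adjusted p = 0.00039) and was at -0.66 in males (adjusted p = 0.071). The change was deeper in females than in males for Hoxa9, Hoxb9, Hoxd4 and Hoxd8 (z test adjusted p = 0.0074, 0.0080, 0.026 and 0.015). Without the length trend 14 members fell in females and 3 in males. Whether the libraries came from the same body site is not stated.

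**Figure D5:**
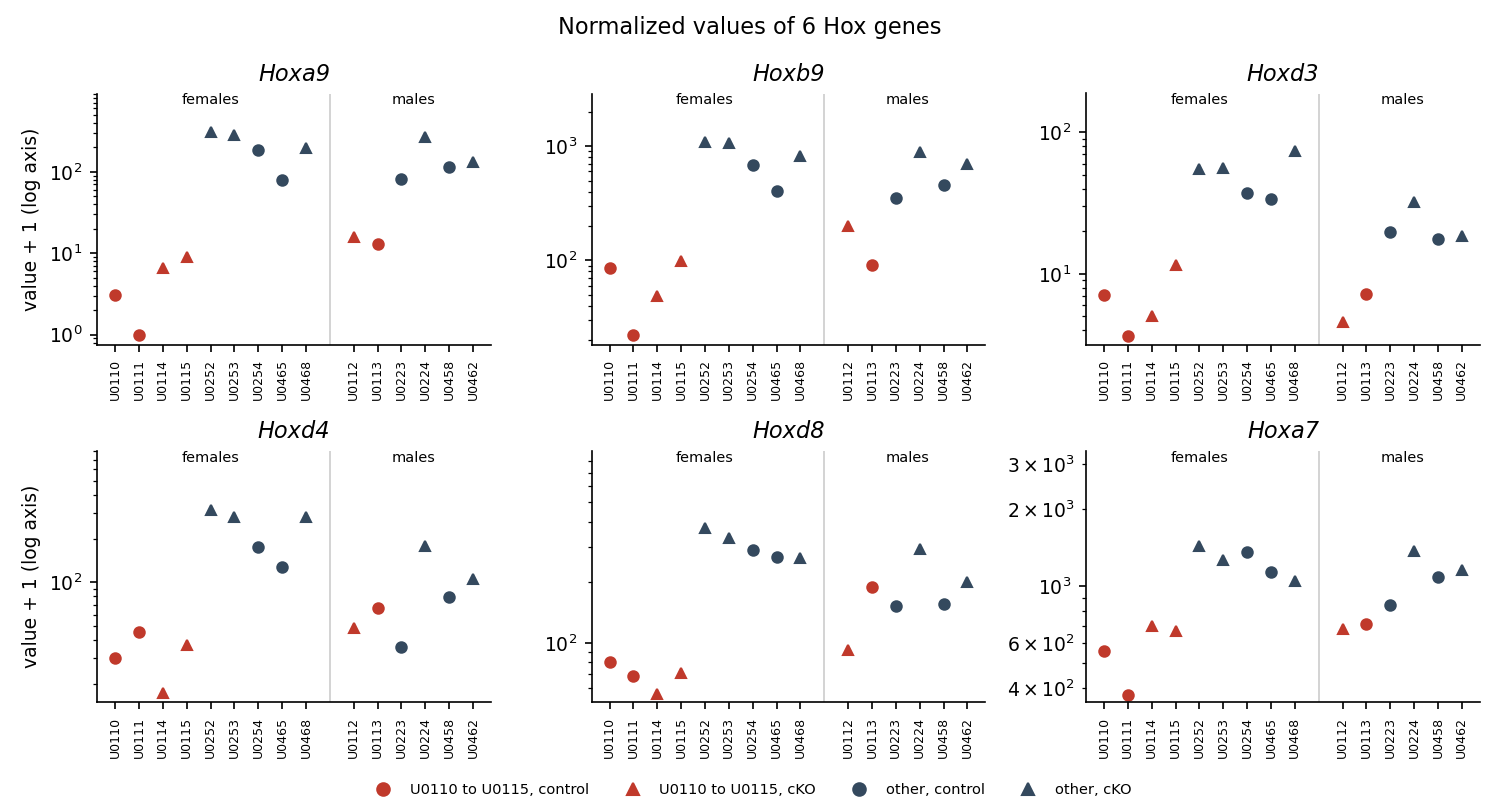
Normalized value plus 1 (log axis) of 6 Hox genes in each of the 15 libraries, red for U0110 to U0115, dark for the others, circles for controls and triangles for cKO. In females all 6 genes are lower in every red library than in every dark one, and in males the same holds for Hoxa9, Hoxb9, Hoxd3 and Hoxa7, while Hoxd4 and Hoxd8 overlap.

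Among genes of the basement membrane, 6 of 11 laminin chains fell in females (median -0.50) and 3 in males (median -0.57), and 0 rose in either. The shares of all tested genes that fell were 16.1% in females and 1.04% in males. Lama5 was at 1462, 1616, 874 and 1175 in the female series against 3359, 3800, 3982, 3657 and 2044, and at 1435 and 2093 in the male series against 2901 to 4722. It fell by 1.44 (SE 0.16, limma adjusted p = 0.00016) and 1.15 (SE 0.22, adjusted p = 0.049). Lama3, a chain of the laminin that anchors basal keratinocytes, fell by 0.72 and 0.97 and fell with the knockout as well (-0.37 in females, adjusted p = 0.0050). Lamb3, of the same laminin, fell by 0.50 and 0.60. Laminin messages are long (median 6046 bases). With the length trend removed the medians were -0.34 and -0.41, with 5 falls in females and 0 in males.

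The basal layer list, which holds laminins and hemidesmosome genes, had 8 falls and 1 rise of 18 in females and 2 falls in males. With the knockout 5 members fell in females. Of all tested genes 16.1% fell with the series in females and 1.04% in males, and 6.57% fell with the knockout in females. Col17a1, a hemidesmosomal collagen, was at 42957 to 47210 in the female series against 59450 to 76341 (-0.60, SE 0.10, limma adjusted p = 0.00095). Itgb4, its integrin partner, fell by 0.67 in females (adjusted p = 0.00024). Neither passed in males (-0.60 and -0.42, adjusted p = 0.063 and 0.13). Collagen chains as a family, picked after values were seen, had 12 falls and 2 rises of 31 in females (median -0.60), and 0 calls of 29 in males. The male median of 0.34 was 0.01 without U0113, and the summed values of the family went the other way, at 78304 and 80799 in the male series against 88919 to 109321. Col4a2 of the basement membrane fell by 0.84 in females and was at 0.09 in males, and the difference passed (z test adjusted p = 0.0045). Col4a6 fell in females (-0.68, adjusted p = 0.00025).

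Of 21 hair follicle stem cell genes 9 fell and 1 rose in females (median -0.37), where 16.1% of all tested genes fell and 18.1% rose. In males 0 passed (median -0.03), beside 2.4% of all tested genes. Nfatc1, a factor of quiescent bulge cells, was at 1954 to 2595 in the female series against 3517 to 4259, and at 3168 and 3481 in the male series against 2829 to 3443. Its change was -0.76 (SE 0.09, limma adjusted p = 0.00019) in females and 0.09 in males, and the difference passed (z test adjusted p = 7.8e-06). Gli1, a target of hedgehog signalling, fell in females (-0.92, adjusted p = 0.0018) and was at -0.91 in males (adjusted p = 0.055). Lgr5, a receptor of follicle stem cells, fell by 0.75 in females (adjusted p = 0.0074). Postn, a matrix protein, fell by 0.93 in females (adjusted p = 0.0022) and rose by 1.11 with the knockout (adjusted p = 0.0029). The list's female median was -0.53 against the 200s alone and -0.11 against the 400s alone.

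Of 20 clock genes 9 fell, beside 16.1% of all tested genes, and 0 rose in females (median -0.39, and -0.15 against the 400s alone). For the knockout 0 passed. Per2, a repressor of the clock, was at 221, 213.5, 127.5 and 156 in the female series against 240 to 781 (-1.31, SE 0.31, limma adjusted p = 0.0083), with -0.63 against the 400s alone (adjusted p = 0.061). Ciart, another repressor, was at 200 to 308 against 342 to 532 (-0.86, adjusted p = 0.00057). Per1 and Cry2 fell by 0.72 and 0.58. In males 0 of 20 passed, the median was 0.05, and Ciart was at 0.68, different from females (z test adjusted p = 0.0099). Ciart, Per1 and Cry2 differed between the male 200s and 400s (limma adjusted p = 0.042, 0.028 and 0.026), as did 328 genes in all (2.33%), and in females 77 genes (0.554%). Time of day at collection is not in the labels, and its part was not tested.

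Differentiation genes of the upper layers were mixed. Their counts stand beside 18.1% of all tested genes that rose and 16.1% that fell in females, and 1.36% and 1.04% in males. Of 26 suprabasal genes 11 rose and 3 fell in females (median 0.29, and 0.02 with quantile normalization), and 0 rose and 2 fell in males (0.15, -0.11 with quantile normalization and -0.0094 against the 200s). Klk7, a protease of the stratum corneum, was at 18862 to 22020 in the female series against 11737 to 15082 (0.69, SE 0.09, limma adjusted p = 0.00023). Lgals7, a keratinocyte lectin, rose by 0.95 in females. Krtdap rose by 0.82, and the change was 0.03 (adjusted p = 0.85) once the length trend was removed. Tgm3, a cross-linking enzyme, went the other way, at 23.2 to 57.0 against 80.6 to 240 (-2.25, adjusted p = 0.00053). Of 26 cornified envelope genes 7 rose and 1 fell in females, with a median of 0.84 that was 1.31 against the 200s and -0.21 against the 400s. Crct1 (1.24, adjusted p = 0.00022), Cnfn (1.14, adjusted p = 0.00011) and Lor (0.95, adjusted p = 0.0019) rose in females, and Crct1 also in males (0.82, adjusted p = 0.049). Cnfn fell with the knockout as well (-0.44, adjusted p = 0.036). The male median of the list was -0.38, and -0.058 without U0113, and its summed values of 221720 and 315531 in the male series overlapped the 184619 to 252762 of the other males.

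Mitotic genes had 6 rises and 0 falls of 30 in females, where 18.1% of all tested genes rose (median 0.24, and 0.01 against the 400s alone). In males 1 fell, and the median of -0.48 was -0.87 without U0112 and -0.11 without U0113, whose mean on the list was -0.74 against -0.0024 in U0112. Aurka, a mitotic kinase, was at 183 to 224.5 in the female series against 90.8 to 152 and rose by 0.79 (SE 0.16, limma adjusted p = 0.0042). Cdc20, an activator of the anaphase complex, rose by 0.75. In males they were at -0.36 and -0.22, and both differences between the sexes passed (z test adjusted p = 0.044 and 0.0089).

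Interferon response genes followed the genotype and not the series in females. Of 31 tested members 19 rose with the knockout (median 1.13), beside 4.39% of all tested genes. With the series 4 rose, beside 18.1% of all tested genes, and 1 fell (median -0.07). Oas2, an RNA sensor, was at 53.9 and 89.2 in the series controls, 73.8 and 100 in the other controls, 298 and 496 in the series cKO and 420 to 752 in the other cKO libraries. Its knockout change was 2.53 (limma adjusted p = 0.00014) and its series change -0.38 (adjusted p = 0.23). Ifit1, another interferon-induced gene, showed 2.34 for the knockout (adjusted p = 0.0041) and -0.39 for the series (adjusted p = 0.48). Psmb9 and Psmb8, inducible proteasome subunits, were among the 4 that rose with the series in females. Psmb9 was at 2101, 2162, 2821 and 3493 in the female series against 1236 to 1787 and at 2025 and 1599 in the male series against 780 to 1039. It rose by 0.91 (adjusted p = 0.00058) and 1.05 (adjusted p = 0.030), and Psmb8 by 0.83 and 0.90, and neither passed for the knockout. In males 2 of 29 rose with the series, and the list median of 1.05 was 0.22 in controls alone and 1.96 in cKO alone, where U0112 was the single series library. Ifitm6, an interferon-induced membrane protein gene, rose in both tables (1.11 and 1.51), and with the length trend removed its female change was 0.51 (adjusted p = 0.063).

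Markers of cells from below or beside the keratinocytes were checked, since fewer cells of a type and less RNA per cell cannot be told apart in tissue RNA. Of 9 tested melanocyte genes 3 fell and 1 rose in females, where 16.1% of all tested genes fell and 18.1% rose. The female median was -1.28, with -0.55 against the 200s and -1.76 against the 400s. In males 0 passed (median -0.36). Tyrp1, a melanin enzyme, was at 41.3, 19.3, 2.72 and 13.2 in the female series against 41.7, 130, 68.3, 109 and 166, and fell by 2.76 (SE 0.59, limma adjusted p = 0.0046). Mitf, the master regulator of the lineage, fell by 0.53. Pmel and Dct, of the pigment pathway, did not pass (-1.34 each, adjusted p = 0.051 and 0.057). In males Tyrp1 was at 8.68 and 21.6 against 46.8 to 166 (-2.57, adjusted p = 0.059). The summed value of the list was 2100 to 2589 in the female series against 2315 to 3141, and 2073 to 2340 against 2076 to 2798 in males. Both pairs of ranges overlapped, and Gpr143 of this list was listed at 0 in the whole female series. The part of melanocytes in the other changes was not tested.

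Some stromal markers, named by size of rise, were high in the 2 male series libraries. Most members of the fibroblast and endothelial lists did not pass. Plvap, of vessel walls, was at 107 and 165 against 24.1 to 53.4 and rose by 2.07 (SE 0.33, limma adjusted p = 0.047). Dcn, a dermal proteoglycan, was at 453 and 689 against 138.2 to 209 (1.74, adjusted p = 0.041). Eln, elastin, was at 102 and 121 against 20.7 to 44.5 (1.92, adjusted p = 0.047). Tagln of smooth muscle and Serpinf1 of fibroblasts rose by 2.15 and 2.01. In the female series none of these passed, and Eln differed from males (z test adjusted p = 0.026). Of 18 endothelial and mural genes tested in males 3 rose (median 1.62), and of 24 fibroblast genes 2 rose (median 0.73, and 0.44 without U0113). The male filter asked for 10 in 2 libraries, so a gene high only in the series could be tested. From the endothelial list 20 members reached 10 in a series library and 17 in another male library. Not all 18 would have been tested without the series, so the median of 1.62 rests partly on the filter. In females 18.1% of all tested genes rose and 16.1% fell. Beside that, 1 rose and 5 fell of 24 fibroblast genes (median -0.35), and 1 rose and 2 fell of 15 endothelial genes (median 0.26). Both signs turned with the libraries compared: the fibroblast median was 0.04 against the 200s and -0.76 against the 400s, and the endothelial one 0.89 and -0.38. The summed values of the endothelial list were lower in the series in both tables, without overlap. They were 4948 to 5567 in the female series against 7855 to 9017, and 7958 to 9134 in the male series against 9208 to 10884. For the fibroblast list they were 13709 to 21375 against 19185 to 37655 in females and 19116 to 26992 against 15516 to 23329 in males. Of the fibroblast and endothelial markers 0 were at 0 in all libraries of a group. The part of these cells in the other changes was not tested.

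Structural RNAs that poly(A) selection should leave behind varied within the series. Rn45s, the ribosomal RNA precursor, was at 19584 and 11240 in the female series controls U0110 and U0111 but at 1984 and 881 in U0114 and U0115, against 1029 to 1951 in other females. In males it was at 14434 in the control U0113 and 6190 in the cKO U0112, against 1474 to 2690. Rpph1, the RNA of ribonuclease P, was at 122, 85.6 and 132 in U0110, U0111 and U0113, at 28.1 in U0112, and at 2.001 to 12.8 elsewhere. Rmrp, of a related ribonuclease, was at 198, 102 and 118 in the same controls, 27.0 in U0112 and 2.001 to 20.1 elsewhere. Rn45s passed in males (2.14, SE 0.22, limma adjusted p = 0.024) and not in females (1.48, adjusted p = 0.087), where its series by knockout term of -3.71 did not pass either (adjusted p = 0.85). Mir6236 was high in the same libraries, at 9487, 5311, 7355 and 2899 in U0110, U0111, U0113 and U0112. No gene passed for that term in females by limma, with 307 genes (2.21%) at an unadjusted p under 0.05.

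Some rises were larger in females than in males. Zfp385c, a zinc finger gene, was at 170, 127.7, 94.8 and 128.5 in the female series against 3.30 to 19.1, and rose by 3.998 (SE 0.42, limma adjusted p = 0.00011). In males it was at 103 and 168 in the series and at 72.3 to 92.0 in the others (0.66, adjusted p = 0.16). Eyelinc18, a noncoding RNA, was at 1679 to 2323 against 303 to 536 in females (2.204, adjusted p = 3.4e-05) and at 1676 and 2369 against 1223 to 1605 in males (0.52, adjusted p = 0.12). Snx22, a sorting nexin, rose by 2.22 in females and was at 0.51 in males, and Abi3, an actin regulator, at 1.81 and 0.56. All 4 differences between the sexes passed (z test adjusted p = 2.5e-08, 6.3e-10, 2.7e-05 and 0.011). For Zfp385c and Eyelinc18 every male library lay above every female library outside the series, although the tables were scaled separately. Pdpn, a membrane glycoprotein of activated keratinocytes, rose by 1.52 in females and was at 1.09 in males (adjusted p = 0.075).

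Sdk2, an adhesion protein, and Shank1, a postsynaptic scaffold, were among the genes named by size of fall. Sdk2 was at 11.9 to 49.1 in the female series against 92.9 to 189 and at 66.5 and 52.0 in the male series against 162 to 409. It fell by 2.42 (SE 0.27, limma adjusted p = 0.00015) and 1.85 (SE 0.33, adjusted p = 0.049). Shank1 fell by 1.81 (adjusted p = 0.00014) and 1.65 (adjusted p = 0.049). With the length trend removed the female changes of Sdk2 and Shank1 were -2.22 and -1.60 and passed, and the male changes of -1.67 and -1.47 did not (adjusted p = 0.087).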

How the data were processed

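Poly(A) RNA-seq libraries were made with a strand-keeping kit, per the labels' protocols. The authors deposited normalized signal values per gene and library, in 1 table per sex, which are not whole counts: 54.3% to 83.4% of low values lay within 0.1 of a whole multiple of a library step. The submitters' processing notes name STAR, DESeq2, GRCm38 and mm10. The counting program and its strand setting are not given in the sources used here. Of 24972 names, 26 turned into dates were left out, and 98.1% of the rest matched GENCODE. Depth was estimated from each library's total and its step, and counting error is not given per value. Each table was fitted with limma 3.58.1 in R 4.3.3 on log2(value + 1), with series and knockout terms and an intensity trend, keeping genes that reached 10 in 4 or more female or 2 or more male libraries, with Benjamini-Hochberg adjustment at 0.05. In simulated negative binomial counts (size 20) 82% of genes changed by 1 on the log2 scale were recovered in females and 39% in males. Of unchanged genes 15 passed in females and 10 in males. The simulation held no knockout effect and no structure between libraries, so these rates need not hold for the real values. Differences between sexes used a z test with a normal reference, whose p-values may be too small with so few libraries. Lists got counts and medians, and no test. The members, lists and named genes were chosen with earlier results of these data known. Genes were named by rule: per table, without predicted names, those past the threshold for the series and not the knockout, without overlap and with a mean of at least 50, the 12 largest changes each way. The rule added the 8 each way largest in both tables, up to 5 per list, the 5 largest interactions (none passed) and label checks, and some of these are described. Rps29, Ndufa2, Hoxa7, Dct, Rpph1, Rmrp, Srp54a, Srp54c, Gm10052, Hnrnpa1, Ifit1, Oas2, Krt5 and Krt10 lie outside the rule and were picked after their values were seen. Alternatives changed the pseudocount, filter, scaling, trend, covariate and libraries. Aged tables and the authors' comparison tables were not used.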

Additional observations from a re-analysis of the deposited data

Results flagged for a closer look

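Of 363 groups of 4 or 5 libraries checked for one standing apart, 21 held one, and chance gives about 1 in 20. Among other females U0253 was low for Rpl41 (9491) and Lgals7 (31357) and high for Hoxa6 (104), U0468 was low for Lama5 (2044), U0254 for Gm10052 (1121), U0465 was high for Snurf (113.96) and U0252 for Krt5 (259851). In the female series U0115 was high for Pdpn (148) and U0114 for Gm10052 (519). Among other males U0223 was low for Itgb4 (9713) and Hoxa6 (86.3), U0224 was high for Lamb3 (7297), Sdk2 (409) and Shank1 (210), and U0462 was high for Ndufa2 (678) and low for H2-L (1381). Of list means centred on their table, U0223 was low for hedgehog and Wnt targets (-0.16) and high for the unfolded protein response (0.21) and endothelium (0.11), U0254 was low for histones (-1.15), and U0115 was high among the female series for skeletal muscle (2.08).

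The change with the series differed between the female and male tables, by the z test of the difference, for 15 genes described here. Sex and table cannot be told apart. Female minus male log2 changes were above 0 for Zfp385c (3.34), Snx22 (1.71), Eyelinc18 (1.68), Abi3 (1.26), Aurka (1.15), Cdc20 (0.98) and Rpl37a (0.58). They were below 0 for Eln (-2.37), Hoxa9 (-2.30), Hoxd4 (-2.26), Hoxb9 (-1.67), Hoxd8 (-1.59), Ciart (-1.54), Col4a2 (-0.92) and Nfatc1 (-0.86).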

How the results depend on the processing

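The female count for the series kept within 1.5 times its value under 12 settings and was 933 in controls alone and 2121 in cKO alone, with 3251 to 4654 without 1 library. The female knockout count was 547 without the series term and 956 to 1554 without 1 library, with 956 without U0115, 961 without U0254 and 1014 without U0114. The series by knockout count was 1 without the trend, and 0 to 2 without 1 library. The male series count was 9 with no filter, 78 with quantile normalization, 5 without the trend, 33 without the length trend, 925 without the knockout term, 2113 with 3 levels of library number, 1233 against the 200s, 1384 against the 400s, 3 in controls alone and 2 in cKO alone, with 2 to 330 without 1 library. The male knockout count was 4 with a pseudocount of 5, 1 without the trend and 0 to 5 without 1 library. Differences between sexes numbered 172 without the trend. The cause of these moves was not tested. Leaving out 1 of 2 libraries of a group assumes that the lone one varies like the rest. Among the genes described that passed in females, leaving out 1 library ended 1 call (Srp54c without U0115), while controls alone or cKO alone ended more. No called change of the genes described turned in direction under the alternatives run, and the other calls were not checked for this. Among list medians 117 moved by more than the spread between libraries within the series groups and 1775 did not. That spread takes controls and cKO together, so it is wide for lists that follow the genotype. No paired analysis was possible because the labels carry no replicate numbers that link series libraries to others, and the runs of library numbers are themselves the comparison.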

Other observations

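Other lists are given beside all tested genes, of which 18.1% rose and 16.1% fell in females. Zinc finger genes of the Zfp family, picked after values were seen, had 56 falls and 11 rises of 312 in females (median -0.20) and 11 falls of 318 in males (median -0.14), and with the length trend removed 36 falls in females and 0 in males. Of 23 heat shock genes 4 rose and 1 fell in females, among them Hspb1, a small chaperone of keratinocytes, at 35452 to 42848 in the series against 16132 to 24884 (0.94, SE 0.10, limma adjusted p = 0.00011). Of 28 NRF2 and xenobiotic genes 8 rose and 2 fell in females and 0 passed in males. Immediate early genes, which mark handling stress, had 6 rises and 1 fall of 30 in females and 0 calls in males. S phase genes had 1 rise and 3 falls of 30, and cholesterol synthesis genes 6 rises and 1 fall of 21, in females.

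T cell and Langerhans or myeloid lists had 1 rise and 0 falls of 20 and 1 rise and 3 falls of 22 in females, with 0 calls in males. Skeletal muscle genes varied from library to library, with summed values of 431 to 2600 in the female series against 505 to 7299, and 1 of 15 fell. Sweat gland genes had summed values of 5553 to 6629 in the female series against 4353 to 4850, with no overlap. The male sums of 4854 to 5436 in the series against 3952 to 4817 did not overlap either. A sum rests most on the members with the highest values, and the means of the tested members overlapped. Centred on their table, these means were -0.46 to 0.31 in the female series against -0.35 to 0.35. In males they were -0.41 and 0.32 against -0.36 to 0.52. Mucl1 of this list was listed at 0 in all 15 libraries, and 1 of 6 tested members rose and 1 fell in females. Erythrocyte genes had summed values of 1708 to 3823 in the male series against 885 to 1185, and 816 to 1894 in the female series against 549 to 1202, which overlapped.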
